A study of Homo sapiens with 6 samples.

Results

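The genes described here are 10 transcription factor genes, chosen by name and grouped as early genes. They are the AP-1 subunits FOS, FOSL1, FOSL2, JUN, JUNB and JUND, the zinc finger gene EGR1, MYC, and the Krüppel-like genes KLF4 and KLF6. All 10 were found among the 17211 genes of the deposited table, and all 10 passed the filter on low values. They were measured by poly(A) RNA-seq in cultures of CAOV2, a line from a human ovarian cancer. One group of 3 libraries (siYAP) had received an siRNA reagent aimed at YAP, and the other 3 libraries (siNT) a non-targeting siRNA. All cells were grown with serum, took up 100 pmol of siRNA by lipid transfection and were collected at day 3; no other agent or allele is named. The reagents are from different suppliers and only 1 line and 1 reagent against YAP were used, so that YAP loss and reagent effects cannot be told apart. The titles also call the cells primary. They call the libraries biological replicates but name no separate passages, and the p-values may thus reflect technical spread.

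Immediate early genes are switched on within minutes of a growth or stress signal, without new protein synthesis. Their short-lived products pass the signal on to later genes. The 10 genes are not all of this strict class, as given below for FOSL1 and JUND, and no induction was measured here. AP-1 is a dimer: FOS proteins bind DNA together with a JUN protein, while JUN proteins can also pair with each other. EGR1 binds GC-rich sites, MYC binds E-boxes together with MAX, and KLF proteins bind GC-rich and CACCC sites. YAP does not bind DNA itself and acts mainly through TEAD factors, which in other cells often occupy the same enhancers as AP-1.

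YAP1 fell to 278, 327 and 294 normalized counts in the siYAP libraries, against 6221, 5801 and 5955 in the siNT libraries, 5.00% of the siNT mean. A normalized count is a gene's read count over the library's size factor, and 25478595 to 31790340 reads stood behind each library. A gene was called at a limma adjusted p under 0.05 over the 17200 genes tested. By this rule 56.8% of the tested genes differed, 28.6% being higher and 28.1% lower in siYAP. With equal library totals 62.0% of the called genes were higher, against 50.4% with the authors' size factors, and the median of all genes moved by 0.0872 on the log2 scale. In bulk RNA, fewer cells of a type and less RNA per cell cannot be told apart.

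Promoter windows of 300 bases, from 250 before to 50 after the gene start (RefSeq, GRCh38.p14, read 5′ to 3′ on the gene's strand), were matched for 8 of the 10 genes, the others being FOSL1 and MYC. Those of FOSL2, EGR1 and KLF4, which fell, are shown with that of JUNB, which rose slightly, so that their letters can be set beside the values. Capitals mark an AP-1 site (TRE, TGANTCA), a CArG box (the serum response factor site), an EGR site (GCGNGGGCG) or an E-box (CACGTG), searched on both strands. All are matches of letters only, and binding was not measured.
FOSL2, chr2:28392608-28392907, plus strand: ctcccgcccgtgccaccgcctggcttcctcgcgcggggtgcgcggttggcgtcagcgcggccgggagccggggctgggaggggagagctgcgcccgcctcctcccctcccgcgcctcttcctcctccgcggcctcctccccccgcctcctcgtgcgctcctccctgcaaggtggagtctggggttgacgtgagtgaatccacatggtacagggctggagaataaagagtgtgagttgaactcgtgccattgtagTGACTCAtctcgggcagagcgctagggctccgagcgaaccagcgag
EGR1, chr5:138465229-138465528, plus strand: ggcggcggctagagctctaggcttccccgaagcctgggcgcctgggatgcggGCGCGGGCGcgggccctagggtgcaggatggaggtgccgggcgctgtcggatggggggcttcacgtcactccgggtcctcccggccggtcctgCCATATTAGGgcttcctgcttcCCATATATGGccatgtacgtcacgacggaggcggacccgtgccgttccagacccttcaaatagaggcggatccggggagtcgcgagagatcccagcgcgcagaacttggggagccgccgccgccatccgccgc
KLF4, chr9:107489720-107490019, minus strand: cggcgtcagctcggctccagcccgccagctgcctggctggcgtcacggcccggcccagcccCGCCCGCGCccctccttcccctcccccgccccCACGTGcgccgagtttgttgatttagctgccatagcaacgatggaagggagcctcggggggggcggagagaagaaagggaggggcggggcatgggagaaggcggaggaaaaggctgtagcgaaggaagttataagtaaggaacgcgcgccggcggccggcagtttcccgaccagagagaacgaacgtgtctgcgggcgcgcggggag
JUNB, chr19:12791236-12791535, plus strand: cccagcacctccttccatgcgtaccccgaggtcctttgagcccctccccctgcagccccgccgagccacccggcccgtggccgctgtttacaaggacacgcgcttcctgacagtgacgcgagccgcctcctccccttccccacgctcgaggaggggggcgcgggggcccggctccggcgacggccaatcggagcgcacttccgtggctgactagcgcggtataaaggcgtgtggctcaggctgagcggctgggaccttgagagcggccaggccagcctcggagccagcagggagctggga
The EGR1 window holds 2 CArG boxes, at window bases 146 to 155 and 168 to 177, and was the only one of the 8 with any. Bases outside the windows were not searched, so the other genes may hold motifs there. A CArG box was present in 1.29% of the 35116 promoter windows of this length. The TRE of FOSL2, at window bases 255 to 261 just after the RefSeq gene start, was likewise the only one among the 8. That motif was in 7.71% of all windows. By the GENCODE 29 bounds given below, FOSL2, JUN and KLF4 start upstream of their windows, which then lie inside the gene. EGR sites, in 9.43% of all windows, were present in EGR1, KLF4 and KLF6, and E-boxes, in 7.26%, in KLF4 and KLF6. The full CRE, TGACGTCA, which ATF and JUN dimers bind, was in 1.85% of all windows and in that of JUND. The TEAD motif searched, GGAATG, was in 14.0% of all windows and in none of the 8. The loose KLF motif CCNCNCCC was in 7 of the 8 and in 56.2% of all windows. It overlaps the EGR sites and is not marked. No marked motif is in the JUNB window.

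Of the 10 genes, 4 fell (FOSL1, FOSL2, EGR1 and KLF4), 2 rose slightly (JUN and JUNB) and 4 were not called (FOS, JUND, MYC and KLF6). Against 28.1% lower and 28.6% higher among all genes tested, a count of 4 lower and 2 higher is not far from the background. On the recovered whole reads edgeR called 2 of the 10 higher and 4 lower, beside 31.4% and 29.8% of the genes it tested, and DESeq2 called 1 higher and 4 lower, beside 25.5% in each direction. The median log2 fold change of the 10 was -0.01, against 0.00 over all genes. In 5 of the 10 all siYAP libraries lay below all siNT libraries and in 3 all lay above, beside 30.6% below and 30.9% above among all genes tested, 61.5% in all. The falls differed in size: FOSL2 and FOSL1 fell by more than 0.75 on the log2 scale, as did 4.88% of all genes tested. EGR1 and KLF4 fell by less. That cut lies between the values of FOSL1 and EGR1, so the share beside it is description only.

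**Figure D1:**
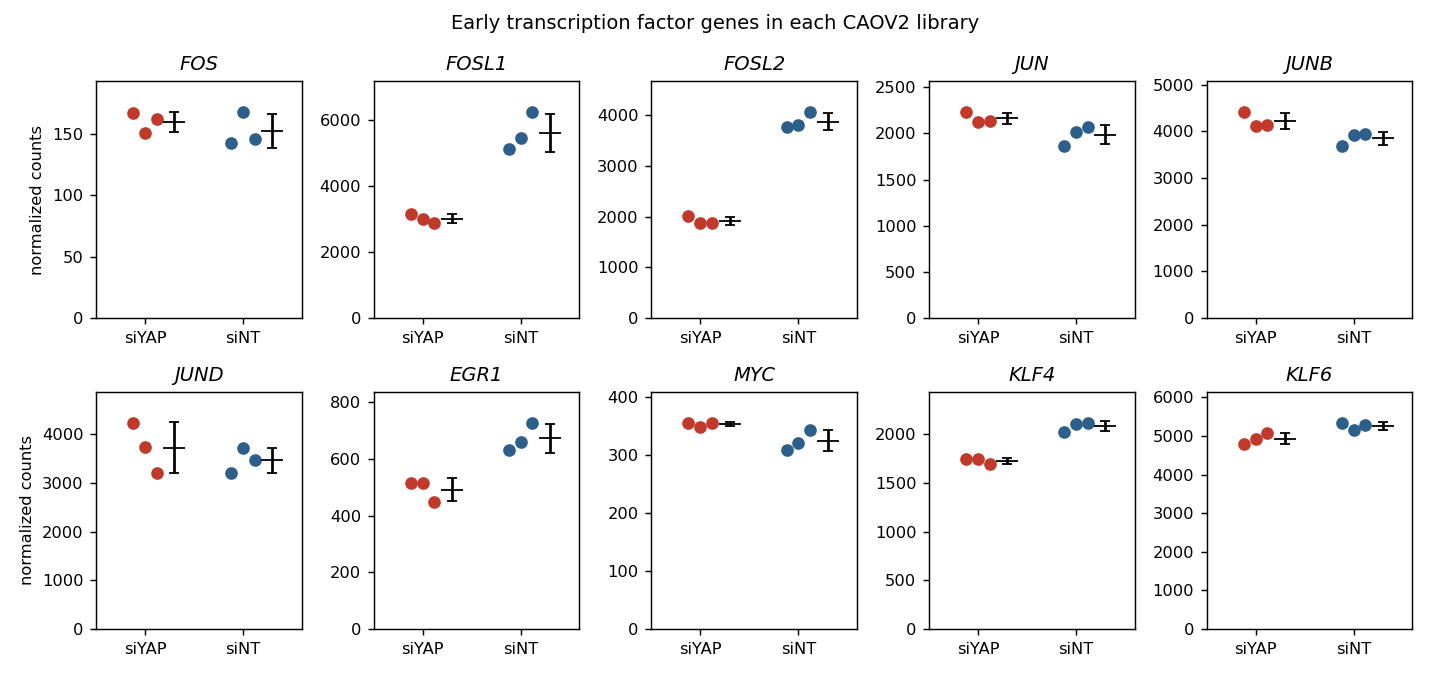
Normalized counts (vertical axes, starting at 0, each gene on its own scale) of the 10 genes in each library, siYAP left of siNT; points are libraries, with the mean ± SD of each group (n = 3 each). FOSL1 and FOSL2 lie well apart between groups, with FOSL2 at 1868 to 2008 in siYAP and 3759 to 4059 in siNT, whereas the groups overlap for FOS and JUND.

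FOSL2 encodes Fra-2, a FOS-family partner of JUN proteins (ENSG00000075426; chr2:28392448-28417312, plus strand, protein-coding; GRCh38, GENCODE 29, as for all genes here). It had 2008, 1868 and 1880.4 normalized counts in siYAP and 3759, 3796 and 4059 in siNT. Every siYAP library was far below every siNT library. The means were 1919 ± 77.4 in siYAP and 3871 ± 164 in siNT (SD, n = 3 each), so that siYAP stood at 49.6% of siNT. Limma put the log2 fold change at -1.01 (standard error 0.0489, adjusted p = 1.08e-13). Among the 10 genes this was the largest change, and falls of at least 2-fold were seen in 2.55% of all genes tested. With equal totals the log2 fold change of FOSL2 was -0.92, short of 2-fold. The annotation also places FLJ31356, on the other strand, and AC104695.3, on the same strand, across FOSL2; neither was analysed here.

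FOSL1 encodes Fra-1, which accumulates under lasting growth factor signalling and lacks the activation domain of FOS (ENSG00000175592; chr11:65892049-65900573, minus strand, protein-coding). It had 3149.9, 3013 and 2881 normalized counts in siYAP and 5124, 5443 and 6238 in siNT. The siNT libraries were spread more widely than the siYAP libraries, with replicate 3 the highest, and the groups were far apart. The means were 3015 ± 134 in siYAP and 5601 ± 574 in siNT (SD, n = 3 each), and limma put the log2 fold change at -0.89 (standard error 0.0580, adjusted p = 1.64e-11). FOSL1 in siYAP was at 53.8% of siNT, and the change stayed within -0.95 to -0.81 with any single library left out.

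FOS, the founding member of the family (ENSG00000170345; chr14:75278774-75282230, plus strand, protein-coding), was the lowest of the 10, with 121 to 184 whole reads per library. It had 167, 151 and 162 normalized counts in siYAP and 142, 168 and 146 in siNT. The groups overlapped. Limma put the log2 fold change at 0.07 (standard error 0.110, adjusted p = 0.600), with a 95% interval of -0.16 to 0.30 that leaves out falls of the size seen in FOSL1 and FOSL2 but not smaller changes.

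The JUN genes did not follow FOSL1 and FOSL2. JUN, whose protein is the main partner of FOS proteins (ENSG00000177606; chr1:58780788-58784327, minus strand, protein-coding), had 2231, 2121 and 2133 normalized counts in siYAP and 1868, 2019 and 2065 in siNT. The groups did not overlap, though the nearest libraries were close. The means were 2162 ± 60.3 in siYAP and 1984 ± 103 in siNT (SD, n = 3 each), and limma put the log2 fold change at 0.12 (standard error 0.0506, adjusted p = 0.0406). Leaving out any single library except siNT replicate 3 ended this call (limma adjusted p 0.0518 to 0.159), as did DESeq2, limma without trend and the replicate block. JUNB, which in several cell types opposes the growth-promoting action of JUN (ENSG00000171223; chr19:12791496-12793315, plus strand, protein-coding), had 4414, 4117 and 4133 normalized counts in siYAP and 3685, 3921 and 3938 in siNT. All siYAP libraries were above all siNT libraries, and limma put the log2 fold change at 0.13 (standard error 0.0465, adjusted p = 0.0182). This call was lost without siYAP replicate 1 (limma adjusted p = 0.106), in limma without trend and in the replicate block. JUNB overlaps HOOK2, a microtubule linker gene on the other strand, which had 739, 731 and 665 normalized counts in siYAP and 710.0, 797 and 755 in siNT and was not called. Whether counting used strand is not stated, and without it reads of this pair cannot be told apart.

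JUND, the JUN gene that many cells express without a stimulus (ENSG00000130522; chr19:18279760-18281622, minus strand, protein-coding), had 4239, 3739 and 3196 normalized counts in siYAP and 3195, 3723 and 3474 in siNT. Its groups overlapped, and siYAP held both the highest library and one of the lowest. The SD was 14.0% of the mean in siYAP, the widest spread of any of the 10 genes in either group. Limma put the log2 fold change at 0.10 (standard error 0.0923), which was not called, with a 95% interval of -0.11 to 0.30. It was -0.000237 without siYAP replicate 1 and 0.20 without siYAP replicate 3, the second being called (limma adjusted p = 0.00663).

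**Figure D2:**
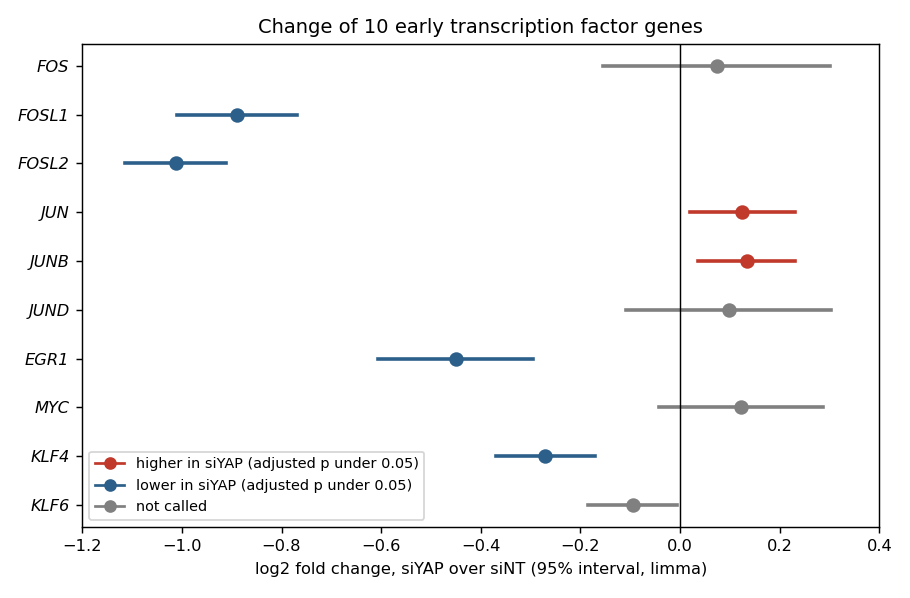
Log2 fold change of siYAP over siNT (horizontal axis) for each of the 10 genes, with bars for the 95% interval of the limma fit (3 libraries per group), coloured by call. FOSL2 (-1.01) and FOSL1 (-0.89) stand apart from EGR1 (-0.45) and KLF4 (-0.27), and JUN, JUNB and JUND lie between 0.10 and 0.13.

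Levels of different genes were compared as normalized counts per kilobase of annotated exon. Summed over FOS, FOSL1 and FOSL2, the FOS family level was 2001, 1905 and 1839 per kilobase in siYAP and 3284, 3467 and 3918 in siNT. The siYAP libraries were all lower, at 53.9% of siNT on average (exact two-sided permutation p = 0.1, the smallest that 3 against 3 libraries allow). The JUN family level was 5331, 4868 and 4589 per kilobase in siYAP and 4267, 4723 and 4612 in siNT, and the groups overlapped (exact permutation p = 0.3). Dividing the FOS family level by the JUN family level gave 0.375, 0.391 and 0.401 in siYAP and 0.770, 0.734 and 0.850 in siNT, without overlap (exact permutation p = 0.1). These are RNA levels, and dimers were not measured. The FOS family level and the shares below leave out FOSB, which averaged 30.9 per kilobase in siYAP and 47.5 in siNT.

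Within the FOS and JUN families the shares of FOSL1 and the JUN genes moved little. Those of FOS and FOSL2 did not overlap between groups. FOSL1 supplied 83.4% ± 0.421 in siYAP and 83.4% ± 0.871 in siNT of the FOS family level (SD, n = 3 each; exact permutation p = 1.0). FOSL2 supplied 14.0% ± 0.289 in siYAP and 15.3% ± 0.759 in siNT, and FOS 2.58% ± 0.133 in siYAP and 1.33% ± 0.171 in siNT (SD, n = 3 each; exact permutation p = 0.1 for both). The share of FOS was thus higher in siYAP while its own level was not called, beside lower levels of FOSL1 and FOSL2. Of the JUN family level JUNB supplied 47.1% ± 2.08 in siYAP and 46.7% ± 0.944 in siNT, JUND 40.4% ± 2.74 in siYAP and 41.0% ± 1.16 in siNT and JUN 12.4% ± 0.663 in siYAP and 12.4% ± 0.286 in siNT (SD, n = 3 each; exact permutation p of 0.9, 0.9 and 1.0).

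**Figure D3:**
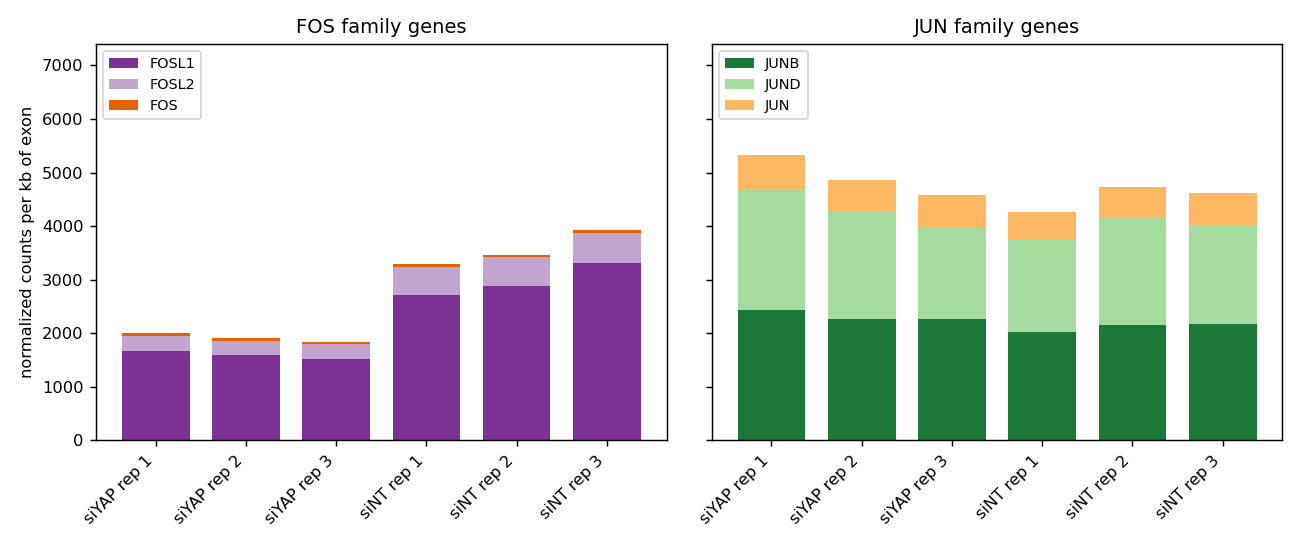
Normalized counts per kilobase of exon (vertical axis, from 0), stacked by gene for the FOS genes and the JUN genes, one bar per library with siYAP left of siNT. The FOS bars, mostly FOSL1, reach 1839 to 2001 in siYAP and 3284 to 3918 in siNT, while the JUN bars overlap between groups.

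FOSL1, JUNB and JUND were the most abundant of the 10 per kilobase in both groups, in a different order. In siYAP the levels per kilobase ran from JUNB (2319 ± 91.9), JUND (1999 ± 280.1), FOSL1 (1598 ± 71.3), KLF6 (802 ± 23.1) and JUN (611 ± 17.0) down to KLF4 (472 ± 8.90), FOSL2 (268 ± 10.8), EGR1 (157 ± 12.6), MYC (117 ± 1.198) and FOS (49.4 ± 2.48; SD, n = 3). Only JUNB and JUND overlapped among neighbours in that order. In siNT they ran from FOSL1 (2968 ± 304), JUNB (2114 ± 77.7), JUND (1859 ± 142), KLF6 (857 ± 16.2) and KLF4 (569.8 ± 13.6) down to JUN (560.5 ± 29.1), FOSL2 (541 ± 22.9), EGR1 (214 ± 15.9), MYC (108 ± 5.96) and FOS (47.0 ± 4.23; SD, n = 3). There JUN overlapped with KLF4 and with FOSL2, its neighbours on either side, and no other neighbours overlapped. In siNT the level of FOSL1 per kilobase was at percentile 97.8 of the listed genes, and that of FOS at percentile 37.5.

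Other bZIP factors, many of which can pair with FOS or JUN proteins, were read from a list of 13, of which 12 were measured. Of these 3 rose, 7 fell and 2 were not called, and the median log2 fold change was -0.20. Among all genes tested 28.6% were higher and 28.1% lower, and the counts of each list below are to be read beside these shares. FOSB, the remaining FOS-family gene, fell to 172 ± 6.23 normalized counts in siYAP, against 264 ± 38.4 in siNT (SD, n = 3 each; log2 -0.60). MAFF, a small MAF gene (log2 -0.66), and BATF2 (log2 -0.77) also fell. ATF2, a JUN partner activated by stress kinases, rose to 3037 ± 105 normalized counts in siYAP, against 2084 ± 107 in siNT (SD, n = 3 each; log2 0.54). Its relative ATF7 (log2 0.30) and JDP2, a JUN partner that represses AP-1 sites (log2 0.65), rose as well. For these 6 genes limma gave adjusted p-values of 4.45e-09 to 0.000354.

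Known AP-1 target genes, among them proteases and their receptors, were mostly lower. Of 17 measured from a list of 20, 1 rose, 13 fell and 3 were not called, with a median of -0.58, beside 28.1% lower and a median of 0.00 over all genes; with equal totals 3 rose. MMP1, an interstitial collagenase with a well-known AP-1 site, fell to 117 ± 17.6 normalized counts in siYAP, against 925 ± 125 in siNT (SD, n = 3 each; log2 -2.97). MMP10, a stromelysin, fell to 20.8 ± 2.67 normalized counts in siYAP, against 87.9 ± 3.34 in siNT (SD, n = 3 each; log2 -2.04), and PLAU, the urokinase gene, fell to 631 ± 46.7 normalized counts in siYAP, against 1726 ± 131 in siNT (SD, n = 3 each; log2 -1.45). The gene that rose was CXCL8, a neutrophil chemokine, to 43.1 ± 9.57 normalized counts in siYAP, against 19.5 ± 1.71 in siNT (SD, n = 3 each; log2 1.09). Adjusted p-values in limma were 9.60e-16 to 0.000336 for these 4 genes. The list was drawn up with earlier results of these data known, and its genes answer to other factors too.

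EGR1, a zinc finger factor induced through serum response factor at CArG boxes such as those capitalised above (ENSG00000120738; chr5:138465490-138469315, plus strand, protein-coding), fell. It had 513, 516 and 446 normalized counts in siYAP and 630.4, 658 and 727 in siNT. All siYAP libraries were below all siNT libraries. The means were 492 ± 39.6 in siYAP and 672 ± 49.97 in siNT (SD, n = 3 each), and limma put the log2 fold change at -0.45 (standard error 0.0750, adjusted p = 2.27e-05), with siYAP at 73.2% of siNT. All 5 measured genes of a list of 6 EGR relatives and NAB corepressors fell, with a median of -0.78, beside 28.1% lower and a median of 0.00 over all genes tested. In this list 3 were lower in limma without trend, 2 with DESeq2, and 3 each without siYAP replicate 2 or siNT replicate 2. NAB1, which binds EGR proteins and holds back their activity, fell to 1090.4 ± 88.6 normalized counts in siYAP, against 1872 ± 64.8 in siNT (SD, n = 3 each; log2 -0.78). EGR3 fell to 18.7 ± 5.35 normalized counts in siYAP, against 39.3 ± 1.70 in siNT (SD, n = 3 each; log2 -1.07), and EGR2 fell to 23.6 ± 6.40 normalized counts in siYAP, against 38.7 ± 8.17 in siNT (SD, n = 3 each; log2 -0.71), both at low levels. Limma adjusted p-values were 1.68e-10 to 0.0162 for these 3 genes.

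MYC, which drives growth and ribosome production (ENSG00000136997, chromosome 8, plus strand, protein-coding), had 355, 348 and 354 normalized counts in siYAP and 308, 321 and 343 in siNT. The siYAP libraries all lay above the siNT libraries, by a small margin. Limma put the log2 fold change at 0.12 (standard error 0.0792, adjusted p = 0.195), with a 95% interval of -0.04 to 0.29, and it was called with equal library totals (log2 0.21, adjusted p = 0.0273). Among 11 relatives and partners in the MAX network, 3 rose, 1 fell and 7 were not called, with a median of 0.04. Over all genes tested 28.6% were higher and 28.1% lower. With equal totals 6 of the 11 rose. The number lower was 2 without siNT replicate 1 or siNT replicate 3, in limma without trend and with a filter at a mean of at least 10. MXD4, a MAX partner that competes with MYC, rose to 3124 ± 230.1 normalized counts in siYAP, against 2024 ± 163 in siNT (SD, n = 3 each; log2 0.63). MAX itself rose slightly (log2 0.15), and MXD3, another such partner, fell (log2 -0.34). The other gene that rose was MYCN, a MYC paralog, at 19.4 ± 3.69 in siYAP and 1.81 ± 1.16 in siNT (SD, n = 3 each); it was named after its values were seen. The limma adjusted p of these 4 genes ran over 7.98e-09 to 0.0170.

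Known MYC targets were mostly lower. Of 19 measured from a list of 20, 1 rose, 16 fell and 2 were not called, with a median of -0.27, beside 28.1% lower and a median of 0.00 over all genes tested. This list too was drawn up with earlier results of these data known. TERT, the catalytic subunit of telomerase, fell to 95.2 ± 4.44 normalized counts in siYAP, against 243 ± 20.9 in siNT (SD, n = 3 each; log2 -1.34). RRS1, a ribosome assembly factor (log2 -0.79), and LDHA, lactate dehydrogenase A (log2 -0.57), fell too. CAD, an enzyme of pyrimidine synthesis, was the one that rose (log2 0.13), and its call was lost without siYAP replicate 2 and in limma without trend. In limma these 4 genes had adjusted p-values of 3.42e-12 to 0.00983.

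KLF4, a reprogramming factor and a brake on proliferation in epithelia (ENSG00000136826; chr9:107484852-107490482, minus strand, protein-coding), fell modestly. It had 1752, 1742 and 1691 normalized counts in siYAP and 2028, 2106 and 2121 in siNT. The libraries of each group lay close together and the groups were well apart. The means were 1728 ± 32.6 in siYAP and 2085 ± 49.6 in siNT (SD, n = 3 each), and limma put the log2 fold change at -0.27 (standard error 0.0478, adjusted p = 4.72e-05). KLF6, a broadly expressed relative (ENSG00000067082; chr10:3775996-3785281, minus strand, protein-coding), had 4789, 4910.4 and 5071 normalized counts in siYAP and 5344, 5149.9 and 5287 in siNT. All siYAP libraries were below all siNT libraries, yet the change was not called. Limma put the log2 fold change at -0.10 (standard error 0.0430, adjusted p = 0.0637), with a 95% interval of -0.19 to -0.01, and it was called without siYAP replicate 3 (log2 -0.12, adjusted p = 0.0482). With equal library totals the log2 fold change of KLF6 was only -0.00816 (limma adjusted p = 0.886). KLF4 supplied 37.1% ± 1.10 in siYAP and 39.9% ± 0.925 in siNT of the summed KLF4 and KLF6 level per kilobase (SD, n = 3 each; exact permutation p = 0.1).

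Other KLF genes went both ways. Of 11 measured from a list of 12, 4 rose, 5 fell and 2 were not called, with a median of 0.08. The shares among all genes tested were 28.6% higher and 28.1% lower. KLF7 rose to 1581 ± 91.4 normalized counts in siYAP, against 917 ± 48.9 in siNT (SD, n = 3 each; log2 0.78), and KLF12 (log2 0.65) and KLF3 (log2 0.61) rose as well. KLF2, a quiescence factor of endothelial cells and lymphocytes, fell to 68.0 ± 3.39 normalized counts in siYAP, against 132 ± 17.1 in siNT (SD, n = 3 each; log2 -0.94). KLF11 (log2 -0.86) and KLF16 (log2 -0.31) fell too. Over these 6 genes the limma adjusted p was 1.50e-10 to 4.21e-05.

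Early response genes outside these families also split. Of 17 measured, 7 rose, 7 fell and 3 were not called, with a median of 0.01, beside 28.6% higher and 28.1% lower among all genes. MCL1, a short-lived survival protein of the BCL2 family, fell to 2247 ± 44.4 normalized counts in siYAP, against 6291 ± 97.0 in siNT (SD, n = 3 each; log2 -1.48). The early response genes IER3 (log2 -1.17) and IER2 (log2 -0.90) also fell. BTG2, an antiproliferative gene (log2 1.49), RHOB, a small GTPase gene (log2 0.83), and NR4A1, an orphan nuclear receptor gene (log2 0.56), rose. Adjusted p-values in limma lay in 3.66e-17 to 1.73e-06 for these 6 genes.

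Among 16 genes whose products take part in the control of early genes, 8 rose, 3 fell and 5 were not called. Their median was 0.13, beside 28.6% higher and 28.1% lower among all genes tested. ELK3, an ETS-domain partner of serum response factor, fell to 1799 ± 19.6 normalized counts in siYAP, against 3592 ± 193 in siNT (SD, n = 3 each; log2 -0.996). The kinase genes RPS6KA5 (log2 -0.30) and MAP2K1 (log2 -0.26) fell by less. MAPK8, encoding the JUN kinase JNK1 (log2 0.69), and the S6 kinase gene RPS6KA3 (log2 0.53) rose. The largest limma adjusted p of these 5 genes was 6.33e-05.

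Of 12 genes for turnover of early mRNA and protein, 2 rose, 6 fell and 4 were not called, with a median of -0.08. All genes tested gave shares of 28.6% higher and 28.1% lower. With equal totals 4 of the 12 rose and 3 fell. ZFP36, which speeds the decay of AU-rich mRNA and is itself an early gene, rose to 1290.3 ± 68.0 normalized counts in siYAP, against 926 ± 53.9 in siNT (SD, n = 3 each; log2 0.48). COP1, a ubiquitin ligase that takes JUN as a substrate, rose (log2 0.51). SKP2, an F-box gene (log2 -0.73), HNRNPD, an AU-rich element binding protein (log2 -0.41), and ZFP36L2 (log2 -0.34) fell. The largest limma adjusted p of these 5 genes was 4.15e-06.

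**Figure D4:**
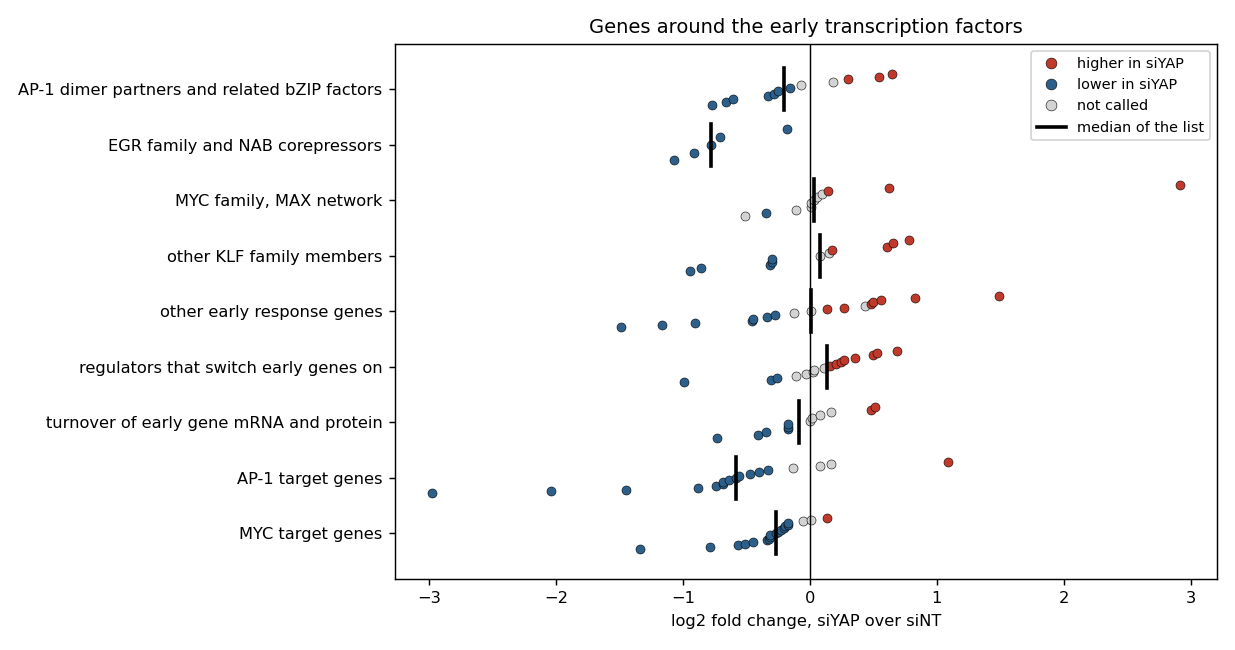
Log2 fold change of siYAP over siNT (horizontal axis) for each measured gene of the lists around the 10 genes (rows), coloured by call, with a bar at each list's median. The medians are lowest for the EGR and NAB genes (-0.78) and the AP-1 targets (-0.58). The median is 0.13 for the regulators of early genes, a row labelled as switching them on though not every product need do so.

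The genes whose 6 log2 values, centred on the gene's own mean, lay nearest to those of FOSL2 were ACTG1, OTUB2, ARHGDIB, NES and HMGA1, at Euclidean distances of 0.0700 to 0.0973. With 6 libraries in 2 groups such a distance mainly finds genes of like fold change, here -1.05 to -1.02. ACTG1, encoding gamma-actin, had 51651, 50172 and 47801 normalized counts in siYAP and 97054, 101300.0 and 105461 in siNT. HMGA1, a chromatin protein gene, had 19195, 18161 and 17801 normalized counts in siYAP and 34972, 38496 and 39752 in siNT. Both were near FOSL2 in fold change at far higher counts.

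An earlier search of these data had linked 3 heptamers in 3′ UTRs with lower values in siYAP. In 1 annotated transcript per gene, TTCTTAA was present in FOSL2, GAGAGGA was present in EGR1, FOS and KLF6, and the other heptamer in none of the 10; the first match in each is shown with its surroundings, the heptamer in capitals.
FOSL2, from base 2190 of a 3′ UTR of 4864 bases: tatagatatTTCTTAAatgaagctg
EGR1, from base 80 of a 3′ UTR of 1234 bases: tggccatagGAGAGGAgggttcctc
FOS, from base 64 of a 3′ UTR of 806 bases: tgcattacaGAGAGGAgaaacacat
KLF6, from base 613 of a 3′ UTR of 3543 bases: tttctgtgtGAGAGGAactcttagt
KLF6 holds GAGAGGA again from base 3152. FOSL1 and KLF4, which fell, hold none of the heptamers, nor do JUN, JUNB, JUND and MYC. Over all genes averaging 50 or more normalized counts, 37.9% of 2577 with TTCTTAA and 39.5% of 1801 with GAGAGGA were lower. For the other heptamer, GATAAAG, this was 36.5% of 1122, against 33.7% of 7179 with none of the 3. The heptamers were picked on these same data, so this difference is no support for them. Genes with and without them were not matched for 3′ UTR length. The part of the heptamers in the values of these genes was not tested.

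Markers of cell identity moved too, and their counts stand beside 28.6% higher and 28.1% lower among all genes tested. Of 6 epithelial markers 2 rose, 3 fell and 1 was not called, with sums of 72574 to 79019 in siYAP and 96329.6 to 104749 in siNT. The keratin genes KRT7 (log2 -0.97), KRT18 (log2 -0.68) and KRT19 (log2 -0.29) fell, while CDH1, encoding E-cadherin (log2 0.93), and the adhesion gene EPCAM (log2 0.74) rose. KRT8, the partner of KRT18 in simple epithelia, was not called, at 33087 ± 1778 in siYAP and 35206 ± 1349 in siNT (SD, n = 3 each; log2 -0.09). Of the 4 measured ovarian carcinoma markers MECOM fell (log2 -0.94) and 3 were not called, and the number lower was 2 without siYAP replicate 2, siNT replicate 1 or siNT replicate 3. PAX8, MUC16 and MSLN were near the floor, the highest mean being 17.1 in siYAP and 28.8 in siNT, and WT1 and SOX17 were not analysed here.

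Of 4 measured fibroblast markers 3 rose and 1 fell, with sums of 14279.9 to 14786 in siYAP and 5589 to 6376 in siNT. COL3A1, a fibrillar collagen gene, rose to 3059.9 ± 79.0 normalized counts in siYAP, against 661 ± 76.9 in siNT (SD, n = 3 each; log2 2.22), and the proteoglycan gene LUM (log2 1.37) and the receptor gene PDGFRA (log2 0.26) rose as well. COL1A1, another fibrillar collagen gene, fell slightly (log2 -0.21, limma adjusted p = 0.0284), and its call was lost without siYAP replicate 1, siYAP replicate 3 or siNT replicate 3, with equal totals, with the replicate block and with DESeq2. The 3 measured immune markers fell, among them the B cell gene CD79A (log2 -1.40) and the macrophage gene CD68 (log2 -0.65), with sums of only 62.5 to 71.3 in siYAP and 143 to 145 in siNT. The single measured endothelial marker, ESAM, fell (log2 -0.45). None of the markers named was at 0.

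Of 9 heat and handling stress genes 3 rose, 5 fell and 1 was not called, with a median of -0.11. Shares over all genes tested were 28.6% higher and 28.1% lower. HSPA1A, an inducible HSP70 gene, fell to 1988 ± 104 normalized counts in siYAP, against 2637 ± 166 in siNT (SD, n = 3 each; log2 -0.41), as did its near-identical copy HSPA1B (log2 -0.39), which may share its reads, and the co-chaperone gene BAG3 (log2 -0.38). The chaperone genes HSPB1 (log2 0.16), HSPE1 (log2 0.15) and DNAJB1 (log2 0.11) rose slightly. These rises were not called in limma without trend and numbered 1 each without siYAP replicate 1, siYAP replicate 2 or siNT replicate 2. The part of the cell type markers and stress genes in the changes of the 10 genes was not tested.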

How the data were processed

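Per the labels' protocols, libraries were made with a stranded mRNA kit. The submitters' processing notes list FastQC, HISAT2, HTSeq and DESeq2 and the builds hg19 and mm9; how each build, an annotation or strand served the counting is not stated in them. The deposited signal is whole read counts over a size factor: 100% of values were whole multiples of 1 read, within 0.01.

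Groups came from the titles. Log2(value + 1) was tested with limma 3.58.1 (trend, robust; R 4.3.3) on 17200 of 17211 genes (at least 1 in at least 3 libraries), with Benjamini-Hochberg adjustment; this scale understates changes of low genes. Recovered reads were tested with edgeR 4.0.16 and DESeq2 1.42.0. Other alternatives were scalings, filters, pseudocount 0.1, no trend, a replicate block and each library left out. Libraries of a group correlated at 0.992 to 0.994 (Pearson, log2) and differed beyond sampling noise. Symbols were matched by identifier to a list of gene names (16662 of 17211) and, where that gave none, to GENCODE 29 (16743 in all).

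The 10 genes, the lists and the heptamers were chosen with earlier results of these data known. From each list the text names up to 3 genes called higher and 3 called lower with the largest change and a mean of at least 20, and the 5 genes nearest to FOSL2; KRT8, PAX8, MUC16 and MSLN were named for their low or high level after their values were seen. Of the genes chosen by this rule, 1 is not reported here.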

Additional observations from a re-analysis of the deposited data

How the results depend on the processing

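FOSL1, FOSL2, EGR1 and KLF4 stayed lower and called in all 16 alternatives, at log2 -0.95 to -0.80, -1.05 to -0.92, -0.50 to -0.36 and -0.29 to -0.18. The small changes held less well. JUN was not called in limma without trend (log2 0.12, adjusted p = 0.117) or DESeq2 (log2 0.13, adjusted p = 0.0516), and JUNB not in limma without trend (log2 0.13, adjusted p = 0.0863). With single libraries left out JUN ranged over 0.0819 to 0.15, JUNB over 0.10 to 0.15, JUND over -0.000237 to 0.20 and KLF6 over -0.12 to -0.0758. With equal totals MYC was called (log2 0.21), and JUN (log2 0.21, limma adjusted p = 0.000931) and JUNB (log2 0.22, limma adjusted p = 0.000258) rose more. KLF6 was then at log2 -0.00816. Of the 10 genes, limma without trend called 0 higher (1 at an unadjusted p under 0.05), DESeq2 1 and edgeR 2; with single libraries left out 0 to 2 were higher and 4 to 5 lower, the 0 being without siYAP replicate 1, where 0 had an unadjusted p under 0.05. With main transcript lengths the FOS share of its family was 1.65 percentage points higher in siYAP, against 1.25 with all exons.

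No pairing by replicate number was seen: deviations of same-numbered libraries from their group means correlated at -0.338, -0.00827 and -0.0685. No library correlated best with its own number in the other group. With 3 libraries per group this cannot exclude that same-numbered cultures were handled together. With the replicate block JUN (log2 0.12, adjusted p = 0.1005) and JUNB (log2 0.13, adjusted p = 0.0664) were not called, 0 of the 10 were higher (1 at an unadjusted p under 0.05) and 4 lower, and 4654 of all genes were higher and 4487 lower. Of 480 list counts, 445 stayed within 1.5 times the reported count. FOS, with 121 to 184 reads per library, is the gene most limited by depth.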
